A study of Danio rerio with 9 samples.

Results

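Mitochondrial ribosomal protein genes encode the protein parts of the ribosome that works inside mitochondria. They were followed here in zebrafish embryos exposed to pentachlorophenol. This wood preservative carries protons across the inner mitochondrial membrane and so uncouples respiration from ATP synthesis. A probe set is a group of short probes read together as 1 signal. A member gene was the only gene of a probe set, and its current or older symbol began with mrpl or mrps and a digit. This gave 70 probe sets for 60 genes, 38 of the large and 22 of the small subunit, out of 8796 genes that the array could name. Where a gene had several probe sets, the brightest one by mean over the arrays represented it. After the dimmest 40% of probe sets had been set aside, 59 of the 60 genes were tested among 6116 genes, 37 of the large and 22 of the small subunit. The gene left out was mrpl43.

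Total RNA came from whole wild-type Tuebingen embryos in gastrulation, some 8 h post fertilisation, and each sample was read on its own 1-colour Affymetrix array. The groups were deionized water as the control, 20 µg/L pentachlorophenol and 50 µg/L pentachlorophenol, with 3 arrays each and 9 in all. Strain, genotype and stage were the same in all groups. The labels call the arrays of a group biological replicates but do not give the number of embryos per sample or say whether clutches differed, so a p-value here speaks only of the spread among these 9 samples. In RNA of whole embryos, fewer cells that express a gene and less RNA per cell cannot be told apart.

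Mitochondria keep a small genome of their own, and its few protein-coding genes make core subunits of the respiratory chain. These proteins are translated by mitochondrial ribosomes, whose RNAs are made in the mitochondrion but whose proteins are all encoded in the nucleus, made in the cytosol and imported. Many mitochondrial ribosomal proteins descend from bacterial ones and share their numbers. Others carry higher numbers, and many but not all of these have no bacterial counterpart. The large subunit joins amino acids and the small subunit reads the mRNA.

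Each array had been scaled to the same trimmed mean, and median signals lay between 97.6 and 150.9. Control replicate 3 and 50 µg/L replicate 1 had the lowest median Spearman correlations with the other arrays, 0.847 and 0.878, against 0.906 to 0.922 for the rest. The array of 20 µg/L replicate 3 correlated more with 50 µg/L replicate 3 (0.957) than with its own group (0.935 and 0.928), and the arrays numbered 3 were deposited with more decimals than the others. Control replicate 3 also had the highest level of the array's tag probe sets, controls which match no embryo transcript: their 95th percentile was 114 there and 50.6 to 82.6 elsewhere. This level served as the background of an array. The ratio of the 3' to the 5' control probe sets of gapdh, a sign of RNA integrity, was 4.23 on control replicate 2 and 0.362 on control replicate 3, against 1.23 to 2.47 on the other arrays. The same ratio for acta1 was 0.206 and 1.68 on these arrays, inside the range of 0.164 to 2.06 over all arrays. Of 20 gastrula tissue markers, such as the mesoderm gene tbxta and the dorsal gene chrd, 19 were bright enough to be tested. At 50 µg/L against control 3 of them rose (vent, gsc and bmp4) and 0 fell, beside 3.79% and 1.18% of all genes. When 50 µg/L replicate 1 was left out, 0% of all genes were called, so these 3 calls did not hold. The median log2 change of the markers was 0.58, against 0.08 over all genes. The part of this difference in the results below was not tested. Some results that rest on single arrays are given below with and without them.

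At 50 µg/L most of the mitochondrial ribosomal protein genes had lower signals than in control embryos, but no single gene passed the test. The model was limma's, fitted to log2(signal + 1) of all 9 arrays, and a gene counted as called at an adjusted p below 0.05 (Benjamini-Hochberg over all probe sets kept). Of the 59 genes tested 0 were called against control, while 4.97% of all genes tested were called, 3.79% as higher and 1.18% as lower. The lowest adjusted p was 0.059, for mrpl12. At an unadjusted p below 0.05, 16 of 59 genes were lower and 1 was higher, beside 9.52% and 15.3% of all genes. Without control replicate 2, the count of genes called moved from 0 to 1, which was mrpl45, and the share of all genes called moved to 8.19%. With the replicate number as a block the count was 0 and the share of all genes called was 2.89%.

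The log2 change against control at 50 µg/L was negative in 42 of 59 genes, beside 44.9% of all genes tested. The median change was -0.32 over the 59 genes, a 0.799-fold level, and 0.08 over all genes. For 1435 other genes of similar brightness (mean level 408 to 996, between the quartiles of the ribosomal genes) the median was 0.15 and 39.5% were negative. In 18 of 59 genes every 50 µg/L array was below every control array, beside 11.6% of all genes. In 1 gene, mrps35, every 50 µg/L array was above every control array, beside 18.1% of all genes. Leaving out control replicate 3 and 50 µg/L replicate 1 together gave 48 negative changes and 32 of 59 genes below without overlap, beside 20.6% of all genes. In the 6 arrays numbered 1 and 2 the change was negative in 44 genes. Leaving out control replicate 3 alone gave 49 and 26, with 17.4% of all genes below without overlap. Leaving out control replicate 2 alone gave 39 and 20, with 19.1% of all genes. All these genes were read on the same arrays, so the counts are not counts of independent replicates. The mean log2 level of the 59 genes per array was 9.32 to 9.71 in control and 9.11 to 9.39 at 50 µg/L, which overlap. The small subunit means overlapped too (9.08 to 9.59 and 9.04 to 9.35). Those of the large subunit did not (9.46 to 9.78 and 9.15 to 9.41).

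**Figure D1:**
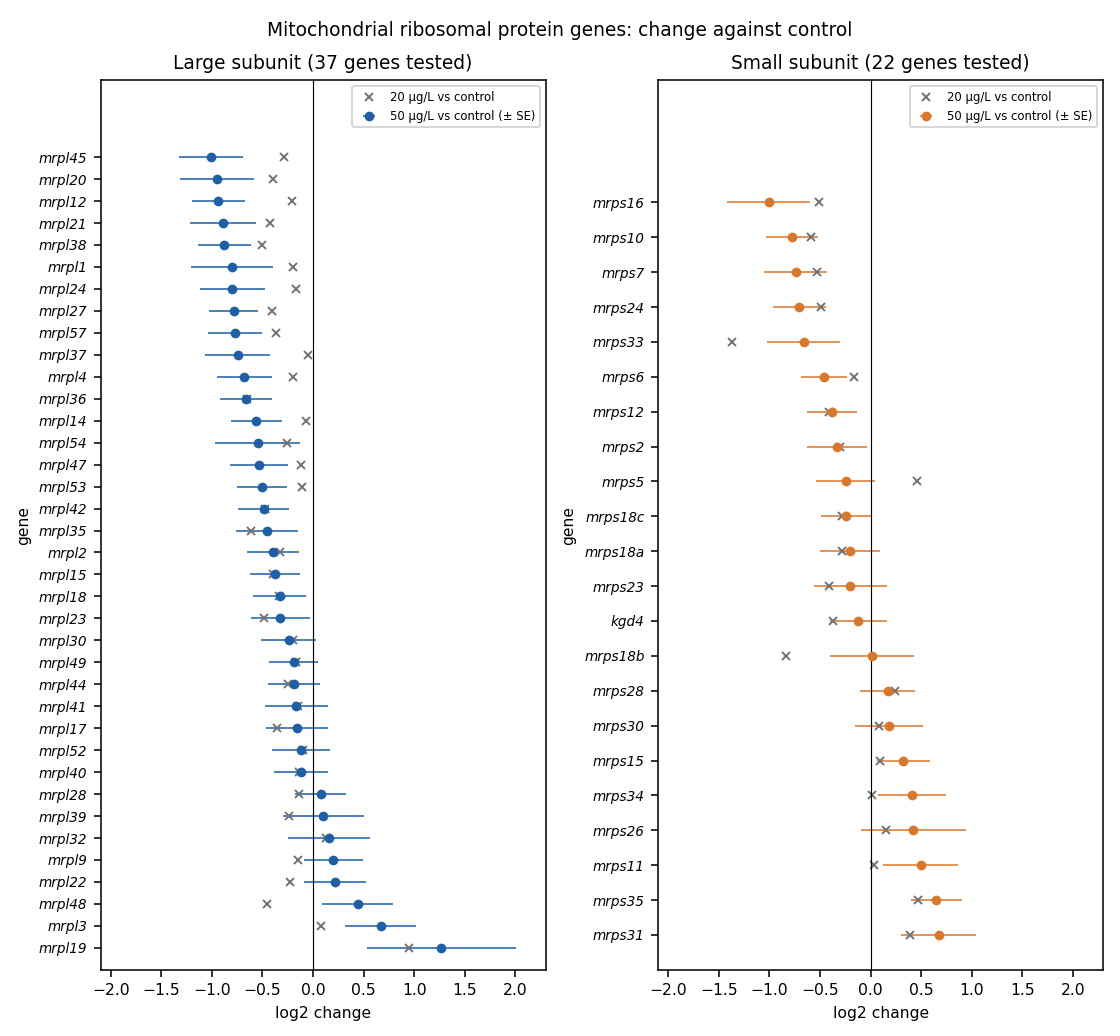
Log2 change against control of the 37 large and 22 small subunit genes tested, on the x axis, with 1 gene per line on the y axis. Filled points with bars are 50 µg/L (± SE, limma) and crosses are 20 µg/L. At 50 µg/L 29 of 37 large subunit genes and 13 of 22 small subunit genes lie left of 0, and no gene passed the test at either dose.

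In the large subunit, 29 of 37 genes had a negative change at 50 µg/L and the median was -0.40. In 13 of 37 the 50 µg/L arrays lay below the control arrays without overlap, and in 0 of 37 above, beside 11.6% and 18.1% of all genes. At an unadjusted p below 0.05, 12 were lower and 0 higher, beside 9.52% and 15.3%. Signals of different probe sets are not comparable with each other, so only changes are set side by side.

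The lowest adjusted p belonged to mrpl12, the counterpart of the bacterial stalk protein that draws translation factors to the ribosome. Its control arrays read 1171, 1452 and 1119.6, the 20 µg/L arrays 1173, 1054 and 1008, and the 50 µg/L arrays 585, 860.1 and 537. The 50 µg/L arrays were all below the other 6, while the 20 µg/L and control arrays overlapped. The log2 change at 50 µg/L was -0.94 (SE 0.26, 95% interval -1.50 to -0.37, limma adjusted p = 0.059), and at 20 µg/L it was -0.20. The gene mrpl38, whose human product sits in the central protuberance and is specific to mitochondria, read 1547, 1444 and 1998 in control, 1351, 1295 and 899 at 20 µg/L and 806, 1022 and 871 at 50 µg/L. Here both exposed groups were below all control arrays. Its changes were -0.88 at 50 µg/L (SE 0.26, limma adjusted p = 0.071) and -0.50 at 20 µg/L.

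The most negative change among the large subunit genes tested was that of mrpl45. In human mitochondria its product lies by the exit tunnel and helps bring the ribosome to the inner membrane. The gene read 581, 494 and 1011 in control, 639, 585 and 424 at 20 µg/L and 276, 398 and 321 at 50 µg/L. The 50 µg/L arrays were below all others, and control replicate 3 was well above the other control arrays. The log2 change at 50 µg/L was -1.01 (SE 0.32, limma adjusted p = 0.083). With each array left out in turn it ran from -1.22 to -0.71. The gene mrpl20, numbered after a bacterial protein, read 1455, 1169 and 3446 in control, 1700.4, 1409 and 1063 at 20 µg/L and 919, 861 and 1028 at 50 µg/L. Its 50 µg/L arrays were again the lowest, and control replicate 3 was the highest of all arrays. Its change was -0.95 (SE 0.36, limma adjusted p = 0.136), and -0.48 without control replicate 3. The gene mrpl21 read 1843, 2953 and 1445 in control, 1672, 1866 and 1033 at 20 µg/L and 1069.7, 1350.3 and 854 at 50 µg/L. Its 50 µg/L arrays lay below the control arrays but overlapped the 20 µg/L arrays, with a change of -0.89 (SE 0.33, limma adjusted p = 0.123).

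**Figure D2:**
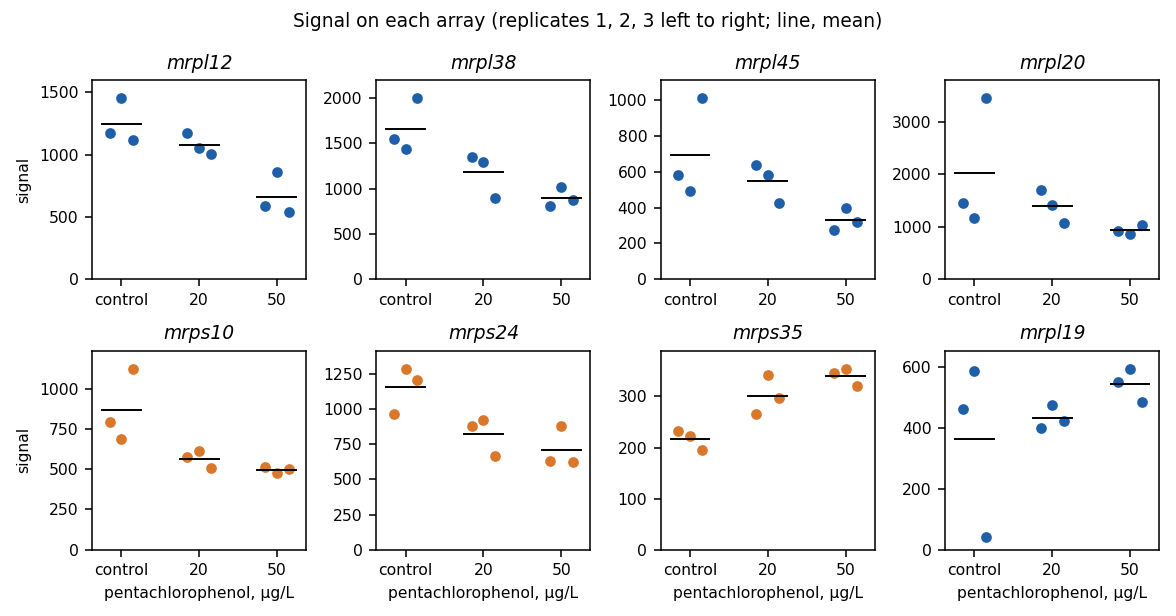
Signal on each array (y axis, linear, from 0) against dose (x axis) for 8 genes, with replicates 1 to 3 from left to right and a line at each group mean. In mrpl12, mrpl38, mrpl45, mrpl20, mrps10 and mrps24 the 50 µg/L points lie below all control points. In mrps35 they lie above, and in mrpl19 control replicate 3 reads 40.8.

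A further 5 large subunit genes were chosen after their values were seen. The gene mrpl27, the counterpart of a bacterial protein beside the peptidyl transferase centre, read 1531, 2004 and 2111 in control and 1143, 1009 and 1094 at 50 µg/L, and its log2 change was -0.79 (SE 0.24, limma adjusted p = 0.076). Further changes at 50 µg/L were -0.80 for mrpl1, -0.80 for mrpl24, -0.77 for mrpl57 and -0.75 for mrpl37, none of them called. The bright genes mrpl36 and mrpl42 had changes of -0.66 and -0.49. The gene mrpl44, whose product has a fold related to ribonuclease III, was at -0.19 (SE 0.26, limma adjusted p = 0.687) and its groups overlapped.

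Of the 8 large subunit genes with a positive change, the 5 highest were mrpl19, mrpl3, mrpl48, mrpl22 and mrpl9. The largest value, 1.27 for mrpl19 (SE 0.73, limma adjusted p = 0.307), came with control arrays of 460.0, 586 and 40.8, of which the last was under the background of its array. The 50 µg/L arrays, 548, 592 and 485, lay within or above the range of the other control arrays. Without control replicate 3 the change was 0.06, and the second probe set of mrpl19 gave -0.38. The gene mrpl3, whose bacterial counterpart reaches toward the peptidyl transferase centre, read 291, 569 and 208 in control, 321, 342 and 373 at 20 µg/L and 570.5, 598 and 407 at 50 µg/L. Its control and 50 µg/L arrays overlapped, and the change was 0.67 (SE 0.35, limma adjusted p = 0.263). That change ran from 0.35 to 1.07 with each array left out in turn. The dim gene mrpl48 was at 0.44, mrpl22, whose bacterial counterpart lines the exit tunnel, at 0.22 and mrpl9 at 0.20. The dim gene mrpl39 was at 0.10. Centring each array on its median lowered every gene's change by the same amount, taking the median of all genes from 0.08 to -0.17, and small positive changes such as those of mrpl22, mrpl9 and mrpl39 became negative with it.

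The gene mrpl43, a large subunit protein specific to mitochondria, was too dim to be tested. It read 110.3, 73.1 and 142 in control, 29, 21.4 and 63.2 at 20 µg/L and 68.9, 42.9 and 2.22 at 50 µg/L. All 3 control arrays were above background and all 3 arrays of each dose below it, so a bound is the most these values give. With values under background raised to that level, mrpl43 was at least 1.53-fold lower at 20 µg/L and at least 1.40-fold lower at 50 µg/L. In a fit with no filter on dim probe sets the adjusted p at 50 µg/L was 0.219 (limma).

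In the small subunit, 13 of 22 genes had a negative change at 50 µg/L and the median was -0.20. The groups stood apart downward in 5 of 22 genes and upward in 1, beside 11.6% and 18.1% of all genes. At an unadjusted p below 0.05, 4 were lower and 1 higher, beside 9.52% and 15.3% of all genes. Without control replicate 2 the median was 0.00 and 11 of 22 genes were negative, and without control replicate 3 the values were -0.25 and 18. Without control replicate 3 the large subunit had 31 of 37 negative changes, 83.8% against 81.8% in the small subunit, so the subunits then differed little in this count. The small subunit median thus reached 0 without a control array, while the large subunit median stayed between -0.44 and -0.31 when each array of the comparison was left out in turn.

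The most negative changes of the small subunit were in mrps16, mrps10, mrps7, mrps24 and mrps33. The gene mrps10, the counterpart of a bacterial protein of the head of the subunit, read 793, 687 and 1122 in control, 574, 612 and 506 at 20 µg/L and 514, 474 and 498 at 50 µg/L. All 6 exposed arrays were below all control arrays. Its change at 50 µg/L was -0.78 (SE 0.26, limma adjusted p = 0.095), and at 20 µg/L it was -0.59 (limma adjusted p = 0.621). The gene mrps24, which in human takes the place of a bacterial protein at the mRNA entry, read 964, 1284 and 1207 in control, 878, 924 and 666 at 20 µg/L and 632, 877 and 624 at 50 µg/L. Again the exposed arrays were all below the control arrays, with changes of -0.70 (SE 0.26, limma adjusted p = 0.127) and -0.49.

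For mrps7, whose bacterial counterpart organises the head of the subunit, the control arrays of 518, 765 and 405 overlapped the 50 µg/L arrays of 279.6, 423 and 289, and the change was -0.74 (SE 0.31, limma adjusted p = 0.170). A second mrps7 probe set gave -0.57. The dim gene mrps16 read 272, 327 and 369.9 in control and 288, 148 and 94.3 at 50 µg/L, a change of -1.01 with a wide interval of -1.90 to -0.12 (limma adjusted p = 0.158). Of its 50 µg/L arrays 1 lay inside the control range and the others below it. The gene mrps12, whose bacterial counterpart shapes the decoding centre, had both exposed groups below all control arrays, with changes of -0.38 at 50 µg/L and -0.42 at 20 µg/L. The bright gene mrps6 was at -0.46 at 50 µg/L.

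The dim gene mrps33, which has no bacterial counterpart, differed most at the lower dose. It read 178, 165 and 190.0 in control, 75.2, 43.9 and 93.8 at 20 µg/L and 128, 102 and 106 at 50 µg/L. Each group stood apart from both others, with 20 µg/L lowest. Of its 20 µg/L arrays 1, replicate 2, was under the background of its array, so the size of the change at that dose is uncertain. The change was -1.38 at 20 µg/L (SE 0.36, limma adjusted p = 0.610) and -0.66 at 50 µg/L (SE 0.36, limma adjusted p = 0.282).

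The positive end of the small subunit held mrps31, mrps35, mrps11, mrps26 and mrps34. The gene mrps35, specific to mitochondria, read 232, 224 and 195 in control, 266, 342 and 296 at 20 µg/L and 346, 354 and 321 at 50 µg/L. All 6 exposed arrays were above all control arrays. Its change at 50 µg/L was 0.65 (SE 0.25, limma adjusted p = 0.142), and its second probe set gave 0.60, with control replicate 3 (80.7) under background. At 20 µg/L that second probe set went the other way, at -0.33 with overlapping groups and replicate 3 (65.7) under background. For mrps31 the change was 0.67 with overlapping groups (SE 0.37, limma adjusted p = 0.285), and the second probe set gave 0.55, again with control replicate 3 (99.1) under background. Leaving out each array in turn gave 0.34 to 0.91 for the brightest mrps31 probe set. The changes of mrps11, mrps26 and mrps34 were 0.49, 0.42 and 0.41. In mrps11 and mrps26 control replicate 3 was the lowest of all arrays, at 299.8 and 201, and without it their changes were -0.014 and -0.32.

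The brightest genes of the small subunit also included mrps15 and mrps28. The first was at 0.32 and the second, whose human product sits where a bacterial RNA-binding protein would, at 0.17, neither of them called. The trio of relatives of 1 bacterial protein, mrps18a, mrps18b and mrps18c, had changes at 50 µg/L of -0.21, 0.01 and -0.24. At 20 µg/L they were at -0.28, -0.83 and -0.29. The signals of mrps18b varied most, with 817, 1786 and 880.1 in control, 423, 758 and 709 at 20 µg/L and 893, 1975 and 748 at 50 µg/L. Replicate 2 was the highest array of each group, and the 20 µg/L arrays were below all control arrays. The second mrps18b probe set overlapped control at 20 µg/L, with a change of -0.24. In that probe set replicate 2 was not the highest array of either exposed group. In human structures mrps18a and mrps30 belong to the large subunit despite their names, and mrps30 was at 0.18 at 50 µg/L. Under the median centring that lowered all genes alike, mrps28, mrps18b and mrps30 were at -0.082, -0.24 and -0.072. The gene kgd4 is a member through its older symbol mrps36. Its human counterpart is now placed in the oxoglutarate dehydrogenase complex, and its change was -0.12.

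Of the 9 genes with more than 1 probe set, 5 had changes of the same sign in all of them at 50 µg/L. The signs differed in mrpl19, mrpl28, mrps5 and mrps11. In mrpl28 the brightest probe set gave 0.07 and the other -0.85, with all its 50 µg/L arrays (449, 658 and 497) below its control arrays (1042, 979 and 851) and a limma adjusted p of 0.096. In mrps15 the second probe set gave 1.33 against 0.32 (limma adjusted p = 0.076 for the second). For these genes the direction or the size given above holds for the probe set named.

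**Figure D3:**
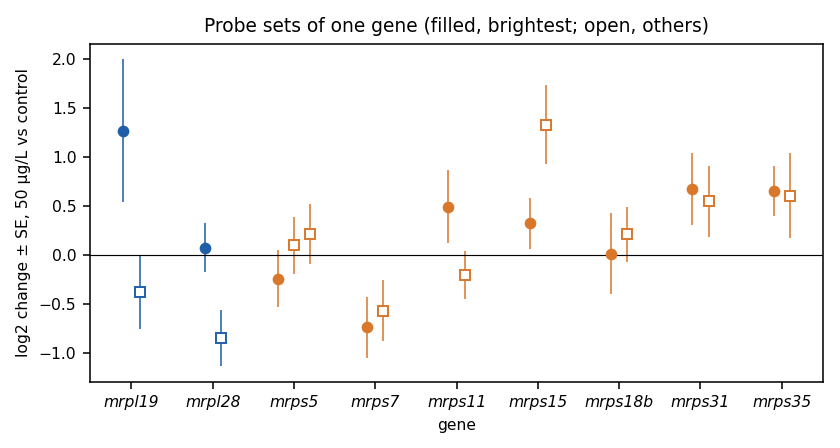
Log2 change at 50 µg/L against control (± SE, limma, y axis) for each probe set of the 9 genes that had several (x axis). Filled circles are the brightest probe set and open squares the others. The signs differ in mrpl19, mrpl28, mrps5 and mrps11.

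The subunits were compared by the mean log2 level of the large subunit genes minus that of the small subunit genes on each array. This difference was 0.24, 0.19 and 0.38 in control, 0.25, 0.25 and 0.26 at 20 µg/L and 0.01, 0.05 and 0.11 at 50 µg/L. All 3 arrays at 50 µg/L were below the other 6, and the 20 µg/L arrays lay inside the control range. The group means were 0.27 ± 0.10 in control, 0.25 ± 0.01 at 20 µg/L and 0.06 ± 0.05 at 50 µg/L (SD, n = 3). Relative to the small subunit, the large subunit was thus 0.21 lower on the log2 scale at 50 µg/L (-0.21 against control) and close to control at 20 µg/L (-0.02). No p is given, since the genes were chosen with results of these data known. Without control replicate 3 the difference at 50 µg/L was -0.16, and without that array and 50 µg/L replicate 1 it was -0.13. With mrps18a and mrps30 counted in the large subunit it was -0.19. The difference was not spread evenly over the genes, as the classes by number below show.

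**Figure D4:**
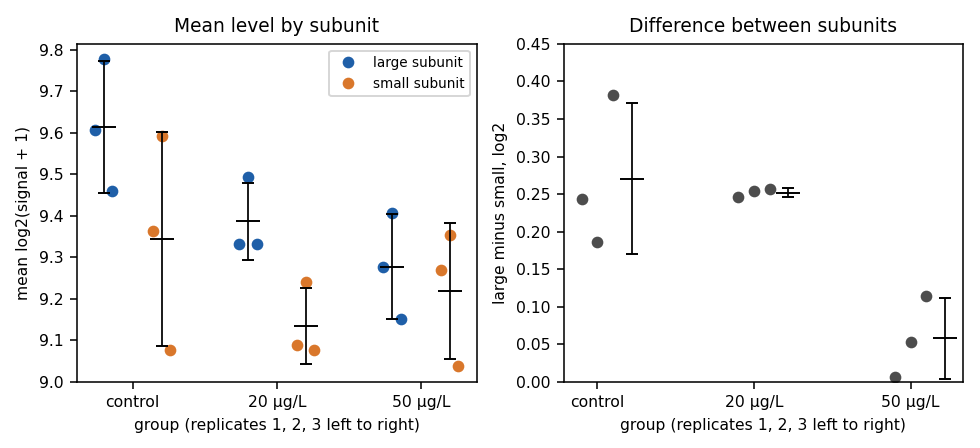
Left, mean log2(signal + 1) over the 37 large and 22 small subunit genes tested on each array, by group; right, the large minus small subunit difference on each array (log2). Points are replicates 1 to 3 from left to right and bars are group mean ± SD over 3 arrays. The left axis does not start at 0. The 50 µg/L differences, 0.01 to 0.11, lie below those of all other arrays.

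Both subunits held genes numbered after bacterial proteins and genes with higher numbers. The split used here goes by number alone, so it does not divide the genes by descent. At 50 µg/L the 22 large subunit genes tested with a bacterial number (up to 36) had a median change of -0.39, and the 15 with a higher number had -0.49. In the small subunit the 12 genes with a bacterial number (up to 21) had a median of -0.29, with 9 negative. The 9 with a higher number had 0.18, with 3 negative, and mrps31, mrps35, mrps26 and mrps34 were among them. The spread within each class was wide, from -0.70 upward even in that last class. Mean changes of the genes with a bacterial number were alike, -0.31 in the large and -0.30 in the small subunit. Those of the genes with a higher number were -0.38 and 0.10. The large minus small subunit difference at 50 µg/L thus lay mostly in the higher-numbered genes. These class medians and means were taken with all 9 arrays only, and control replicate 3 bears on them. Without it 18 of 22 small subunit genes were negative, against 13 with all arrays. Of the higher-numbered genes, mrps26, mrps28 and mrps30 then turned to -0.32, -0.07 and -0.18. The changes of mrps31, mrps34 and mrps35 stayed positive with each array left out in turn.

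The highest and lowest signals of these genes were spread unevenly over the arrays. Control replicate 2 was the highest of the 9 arrays for 23 of 59 genes, beside 12.8% of all genes tested. Control replicate 3 was the highest for 15 and the lowest for 13, beside 21% and 21.8% of all genes. The lowest signal lay on 50 µg/L replicates 1, 2 and 3 for 10, 8 and 14 genes, beside 11.8%, 7.85% and 8.16% of all genes. The median SD among control arrays was 0.35 on the log2 scale, against 0.23 at 20 µg/L and 0.26 at 50 µg/L. Over all genes tested it was 0.42, 0.29 and 0.28, so the wider control spread was shared by the whole arrays. Control replicates 2 and 3 were the outer arrays in the gapdh 3' to 5' ratio but not in that of acta1, and the part of either ratio in the differences was not tested.

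At 20 µg/L the signals of most large subunit genes were slightly below control and again no gene was called. The count was 0 of 59, beside 0% of all genes tested, and at an unadjusted p below 0.05 limma gave 3 lower genes (mrps33, mrpl36 and mrps10) and 0 higher. These compare with 3.83% lower and 3.55% higher over all genes. The change was negative in 34 of 37 large and 13 of 22 small subunit genes, beside 55% of all genes. The medians were -0.23 and -0.28, beside -0.05 over all genes. In 9 of 59 genes the 20 µg/L arrays were below the control arrays without overlap, beside 7.13% of all genes, and in 1 gene, mrps35, above, beside 5.28%. The second mrps35 probe set was at -0.33 at this dose, with overlapping groups. Both dose comparisons use the same control arrays, so a high or low control array enters both. Without control replicate 2, 26 of 37 large (34 with all arrays) and 13 of 22 small subunit genes were negative at 20 µg/L, beside 54.6% of all genes.

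The gene mrpl36, the counterpart of a very small bacterial protein, was the large subunit gene furthest below control at 20 µg/L among those tested. It read 1865, 1607 and 2808 in control, 1214, 1347 and 1316 at 20 µg/L and 1154, 1356 and 1363 at 50 µg/L. All exposed arrays were below all control arrays, and the exposed groups overlapped each other. The change was -0.66 at both doses (SE 0.26, limma adjusted p = 0.611 at 20 µg/L and 0.141 at 50 µg/L). At 50 µg/L it ran from -0.83 to -0.43 with each array left out in turn.

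Between the doses the signals of the 59 genes were centred near no change. Against 20 µg/L, 0 of 59 genes were called at 50 µg/L, beside 1.67% of all genes tested, 1.62% as higher and 0.0491% as lower. At an unadjusted p below 0.05, limma gave 3 lower genes (mrpl12, mrpl45 and mrps5) and 1 higher (mrpl48), beside 5.59% and 14.6% of all genes. The median was -0.02 in the large and 0.08 in the small subunit, beside 0.11 over all genes. In 10 genes the 50 µg/L arrays lay below the 20 µg/L arrays without overlap, 9 of them of the large subunit, beside 10.8% of all genes. In 6 genes they lay above, beside 20.3%. For mrpl12 the change between doses was -0.73 (SE 0.26, limma adjusted p = 0.177). For mrpl48 it was 0.89 (SE 0.35, limma adjusted p = 0.213). The gene mrps5, named after its values were seen, read 1127, 958 and 741 at 20 µg/L and 562, 443 and 745 at 50 µg/L. That was a change of -0.70 (limma adjusted p = 0.230), and its other probe sets gave -0.12 and -0.74. The group means ran from control down over 20 to 50 µg/L in 22 of 37 large and 6 of 22 small subunit genes, beside 20.2% of all genes. They ran upward in 3 large and 7 small subunit genes, beside 23.3%.

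Of the other genes that build or run the mitochondrial ribosome, none was called at 50 µg/L against control, beside 4.97% of all genes tested. In lists this short a count of 0 lies near that share, so it is not read as a trait of these genes. Subunits with names of another kind had changes of 0.35 for chchd1, 0.25 for dap3, 0.14 for ptcd3 and -0.08 for gadd45gip1, and 4 of the 5 such genes listed were tested. Of 25 translation factors and tRNA-modifying enzymes listed, 12 were tested, 0 were called and the median was 0.15. Among them tufm, the elongation factor that brings aminoacyl-tRNA to the ribosome, was at -0.74 (limma adjusted p = 0.074). It read between 4139 and 5658 in control and between 2745.6 and 3169 at 50 µg/L, with no overlap. The glutaminyl-tRNA amidotransferase gene qrsl1 rose between the doses, by 1.62 from 20 to 50 µg/L (limma adjusted p = 0.039), and was at 0.37 against control. In that comparison 1.62% of all genes tested were called as higher. The share of all genes called there ran from 0.0163% to 22.5% over the alternatives run. Whether the qrsl1 call held under them was not tested. Of 31 assembly and rRNA modification genes 16 were tested, 0 were called and the median was 0.33. Only 4 of 17 listed mitochondrial aminoacyl-tRNA synthetase genes were tested (median 0.06), and 13 of 25 genes of mitochondrial transcription and RNA handling (median -0.22), with 0 called in each.

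Genes of the complexes that mitochondrial translation helps build, and of the cytosolic ribosome, included members that passed the test with all arrays. Of 75 nuclear genes of the respiratory chain and ATP synthase tested, 16 fell and 1 rose (cox6b1) at 50 µg/L, with a median of -0.69. Those that fell were 7 of 18 ATP synthase, 4 of 12 cytochrome oxidase, 4 of 38 complex I and 1 of 7 complex III genes. Of 74 cytosolic ribosomal protein genes 5 fell, 0 rose and the median was -0.60. Over all genes tested 1.18% fell and 3.79% rose. When 50 µg/L replicate 1 was left out, 0% of all genes tested were called, so no call in these lists held. These lists were read on the same arrays, and their difference from the mitochondrial ribosomal list was not tested. The mitochondrial gene COX1, which mitochondrial ribosomes translate, had changes of -0.46, -0.20 and -0.16 in its 3 probe sets, none of them called.

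**Figure D5:**
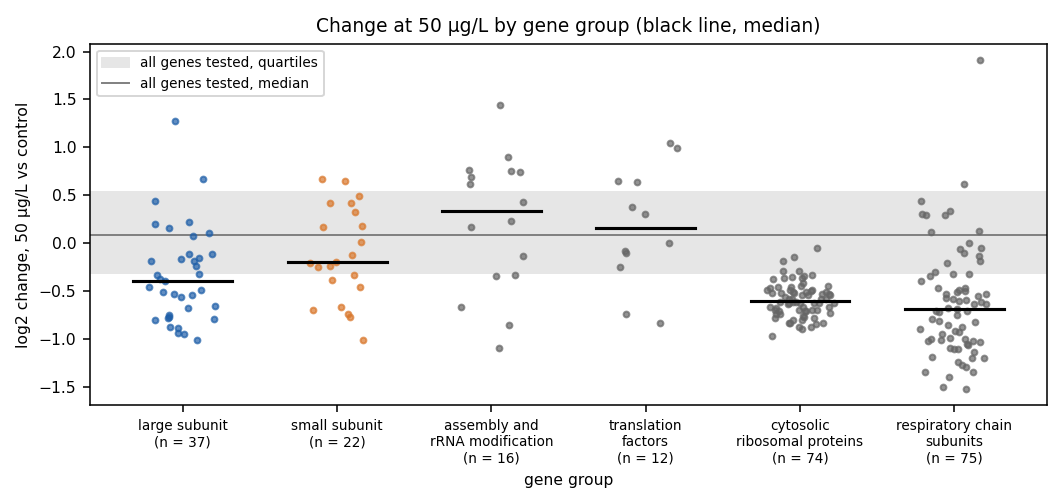
Log2 change at 50 µg/L against control (y axis) for the genes tested in 6 groups (x axis), 1 point per gene, with a black line at each median. The grey band is the middle 50% of all 6116 genes tested and the grey line their median, 0.08. Medians are -0.40 and -0.20 for the mitochondrial subunits, 0.33 and 0.15 for assembly and translation factors, -0.60 for cytosolic ribosomal proteins and -0.69 for the respiratory chain.

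Maternal transcripts, laid down in the egg by the oocyte, differed at 50 µg/L too. Of 25 such genes listed, 20 were tested, of which 10 rose and 0 fell, beside 3.79% and 1.18% of all genes. The median change of these maternal genes was 1.09. Their mean log2 level was 10.21 to 10.73 on the 50 µg/L arrays, against 8.88 to 9.25 in control and 8.87 to 9.17 at 20 µg/L. The oocyte genes btg4 (4.20, limma adjusted p = 0.0055) and zar1 (1.30, limma adjusted p = 0.036) were among those that rose. When 50 µg/L replicate 1 was left out, 0% of all genes tested were called, so these calls did not hold. The part of the maternal difference in the values of the mitochondrial ribosomal genes was not tested.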

How the data were processed

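The authors deposited a linear intensity for each of 15617 probe sets on every array. GCOS and MAS5 are the tools named, per the submitters' processing notes; their versions are not given in the sources used here. Every array had a mean of about 500.1 after trimming 2% at each end. The table held 0 columns of other samples. Of the probe sets, 10802 had 1 gene in the platform annotation, 135 several and 4680 none.

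Values were taken as log2(value + 1). The 115 manufacturer control probe sets and the dimmest 40% of the others were left out, which kept 9301. All 9 arrays entered 1 limma 3.58.1 fit in R 4.3.3 (lmFit, contrasts of group means, eBayes with an intensity trend), and two-sided p-values were adjusted by Benjamini-Hochberg across those 9301, with calls at 0.05. The procedure was run on simulated data with independent errors and the same spread on every array. The arrays here differ in quality, so that run does not speak for the counts above. The number of arrays limits the precision.

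The members and all gene lists were chosen with earlier results of these data known. Genes named by rule are those called, the 5 highest and 5 lowest changes at 50 µg/L per subunit, the 3 brightest and 3 dimmest per subunit, and 12 fixed by name, of which 3 were not among the members. Outside this rule, mrpl27, mrpl1, mrpl24, mrpl57 and mrpl37, all with negative changes, and mrps5 were named after their values were seen. Genes whose probe sets differed were named as well. The maternal, gastrula and other lists were taken by symbol. Alternatives tried were the offset, filter, normalization, background, probe set rule, model terms, array weights, export format (arrays numbered 3 carry more decimals) and each array left out. The labels do not say that replicate numbers pair the samples. Deviations from the group means of same-numbered 50 µg/L and control arrays correlated at 0.103, 0.233 and 0.103, above 0.1 in all 3 pairs, so the block is given beside that comparison. Differently numbered pairs of these groups ran from -0.308 to 0.213, so the values do not show that numbers pair the samples. In same-numbered pairs with 20 µg/L arrays the correlations ran from -0.165 to 0.0950, and no pairing was taken there.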

Additional observations from a re-analysis of the deposited data

How the results depend on the processing

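The count of mitochondrial ribosomal genes called at 50 µg/L against control was 0 and became 1 with quantile normalization (mrpl12), 1 in the 6 arrays numbered 1 and 2 (mrpl24) and 9 with array weights, where 19.9% of all genes tested were called against 4.97%. Over the alternatives the share of all genes called ran from 0% to 19.9%, so a count of 1 is not read as a trait of these genes. The count ranged from 0 to 1 with each array left out. The share of all genes called was 0% without 50 µg/L replicate 1, 0.95% without 50 µg/L replicate 2 and 0.049% without that first array and control replicate 3, and was 1.73% to 8.19% without a control array. It was also 2.35% with no filter and 2.27% with only both groups in the fit. Between the doses the count of 0 became 5 with array weights (22.5% of all genes against 1.67%) and 3 in the 6 arrays (13.6%). At 20 µg/L it was 0 under every alternative run. With the replicate number as a block the count was 0 in each comparison, with 2.89% of all genes called at 50 µg/L and a lowest adjusted p of 0.069 among these genes. Between the doses 0.703% of all genes were called with the block. The block changed no call of these genes. The array weights were lowest for control replicate 3 (0.27) and highest for control replicate 1 (2.63).

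The large minus small subunit difference at 50 µg/L was -0.26 to -0.16 with each array left out, and -0.13 without control replicate 3 and 50 µg/L replicate 1, a setting chosen after seeing the data. At 20 µg/L it ranged from -0.06 to 0.04, so its sign is not settled. Median centring moved the median of all genes from 0.08 to -0.17; relative to all genes the large subunit median lay between -0.52 and -0.41 and the small between -0.33 and -0.09 over all alternatives.

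Genes with small changes at 50 µg/L turned sign. Under median centring, which lowered all genes alike, the values were -0.030 for mrpl22, -0.15 for mrpl39, -0.051 for mrpl9, -0.24 for mrps18b, -0.082 for mrps28 and -0.072 for mrps30. Quantile normalization gave -0.042 for mrpl22, -0.18 for mrpl39, -0.042 for mrps18b and -0.053 for mrps30. Array weights gave -0.010 for mrps28 and -0.044 for mrps30. The 6 arrays gave -0.030 for mrpl22, 0.044 for mrpl44, -0.026 for mrps26 and -0.061 for mrps28. Without control replicate 3 and 50 µg/L replicate 1 the values were -0.020 for mrpl9, -0.13 for mrps11, -0.41 for mrps26, -0.018 for mrps28 and -0.17 for mrps30. In that setting mrpl39 kept its positive sign, at 0.68. With each array left out in turn the changes ran from -0.18 to 0.65 for mrpl39, -0.0082 to 0.48 for mrpl9, -0.014 to 0.79 for mrps11, -0.41 to 0.37 for mrps18b, -0.32 to 0.89 for mrps26, -0.069 to 0.31 for mrps28 and -0.18 to 0.40 for mrps30. The cause of these turns was not tested.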
